A study of Rattus norvegicus with 5 samples.

Results

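The genes described here encode splicing factors and related RNA-binding proteins, measured in rat tendon stem/progenitor cells (rTSPCs) at passage 12 (P12). They were taken as every measured gene whose symbol begins with Srsf, Srrm, Snrp, Sf3, U2af, Prpf, Lsm and a digit, Hnrnp, Ptbp, Celf, Mbnl or Rbm. This gave 93 genes in 12 families, each read by 1 probe set, of 10141 probe sets in all. Prim-O-glucosylcimifugin (POG), a compound from saposhnikovia root, was added at 20 μM to the medium in every passage from 3 to 12 for the POG-treated group (2 arrays). The DMSO-treated group (3 arrays) received the same volume of the solvent alone over the same passages. The study's supplement states that POG was withdrawn once passage 12 was reached, before the cells were examined. It does not say how long before RNA was taken. Per the study's methods, the cells of both groups came from digested Achilles tendons of young male Sprague-Dawley rats, and selected colonies were subcultured. The labels call the arrays of a group biological replicates without saying whether they came from separate animals or cultures, so the p-values below measure only the spread between these 5 arrays.

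Pre-mRNA splicing is carried out by the spliceosome, which assembles on each intron from small nuclear ribonucleoproteins (snRNPs) built on rings of Sm or LSm proteins. The branch point is held by the U2 snRNP with its SF3a and SF3b subcomplexes, and the 3′ splice site is recognised by U2AF. SR proteins mostly favour the use of nearby exons, while many hnRNPs and the polypyrimidine tract-binding proteins favour exon skipping, and CELF, MBNL and RBM proteins adjust splicing, stability or localisation of particular transcripts. Many of these proteins act in every cell, and their balance differs between cell types.

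Signals are log2 values, so a difference of 1 is 2-fold, and a gene was called higher or lower when limma's adjusted p over all probe sets was under 0.05. By this rule 46.3% of all probe sets differed between POG- and DMSO-treated cells. The SD of the differences between 2 arrays was 0.99 to 1.04 across groups and 0.32 to 0.37 within a group over all probe sets, and 0.55 to 0.63 and 0.28 to 0.40 over the 93 genes. Of 22 measured markers of proliferating cells (of 25 listed), POG-treated cells had 20 higher and 0 lower, with a median difference of 1.44 and a summed log2 signal of 203.87 to 205.98 on POG arrays against 166.94 to 175.08 on DMSO arrays. Of 8 measured smooth muscle and pericyte markers, 0 were higher and 7 lower, with summed signals of 68.4 to 70.19 in POG and 102.08 to 102.56 in DMSO. All 5 measured leukocyte markers (of 10 listed) were higher, with sums of 32.97 to 35.24 in POG and 25 to 27.17 in DMSO. Over the 5 arrays Lyz2, Cd53, Cd68 and Fcer1g had mean signals of 4.04 to 5.86. These are under the lower quartile of all mean signals (6.19), where background can set the level, and Cd14 stood at 8.59. Endothelial markers (3 measured of 8) split, with 1 higher and 1 lower and sums of 15.29 to 15.52 in POG and 14.81 to 15.94 in DMSO. All 3 had mean signals under the same quartile (4.42 to 5.85), and 0 of 6 epithelial markers were measured. Of 9 measured tendon and mesenchymal markers (of 12 listed) 0 were higher and 2 were lower, with sums of 124.65 to 126.18 in POG and 127.25 to 129 in DMSO. Among them the tendon transcription factor Scx read 5.99 and 5.55 on POG arrays against 6.04, 6.09 and 6.11 on DMSO arrays, which is under the lower quartile of all mean signals (6.19), and Col1a1 read 19.31 and 19.18 against 19.30, 19.47 and 19.39. The part of these marker shifts in the results below was not tested. In RNA from whole cultures, a change in the share of a cell type and a change in RNA per cell cannot be told apart.

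Compared with the DMSO-treated cells, 26 of the 93 genes rose and 6 fell with POG, and 61 did not pass. The called share was 34.4%, below the 46.3% over all probe sets. The share called higher was 28% beside a background of 26.7%, and the share called lower was 6.45% beside 19.6%. The difference was positive for 72 of the 93 genes, with or without a call, which is 77.4% beside 56.2% of all probe sets. The median difference was 0.26 over these genes and 0.11 over all probe sets, and the median absolute difference was 0.35 against 0.49. Changes of more than 2-fold were seen in 6 genes upward and 3 downward, 9.68% of the set against 18.8% of all probe sets. None of the 93 passed 4-fold, which 4.77% of all probe sets did. All POG arrays lay above all DMSO arrays for 45 genes (background 38.3% of probe sets) and below them for 11 (background 28.5%), together 60.2% of the genes beside 66.8% of all probe sets. The split of calls moved with the scaling: after each array was centred on its own median, 18 genes were higher (19.4%) and 8 lower (8.6%), and 24 of the 32 calls were kept. The split over all probe sets moved as well, to 2291 higher (22.6%) and 2307 lower (22.7%).

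**Figure D1:**
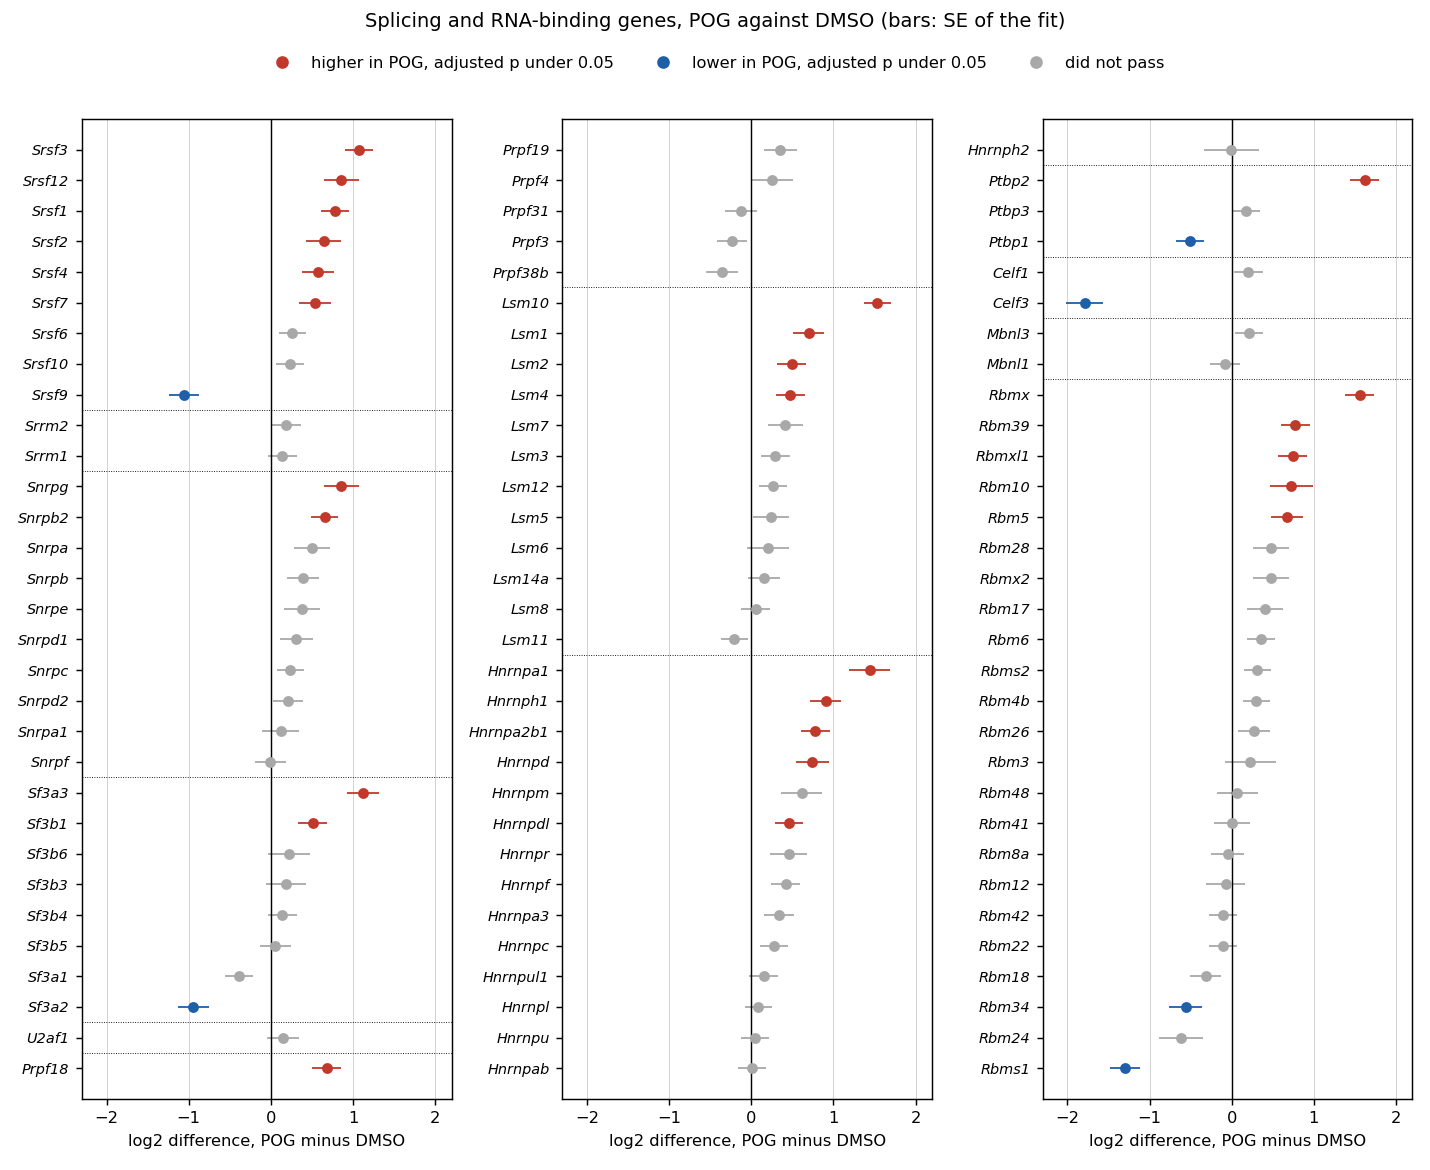
Difference in log2 signal, POG minus DMSO, of each of the 93 genes, grouped by family (dotted lines), with bars for the standard error of the fit. Red points (26) passed the threshold as higher with POG and blue points (6) as lower, and grey points (61) did not pass; most points lie between 0 and 1.

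**Figure D2:**
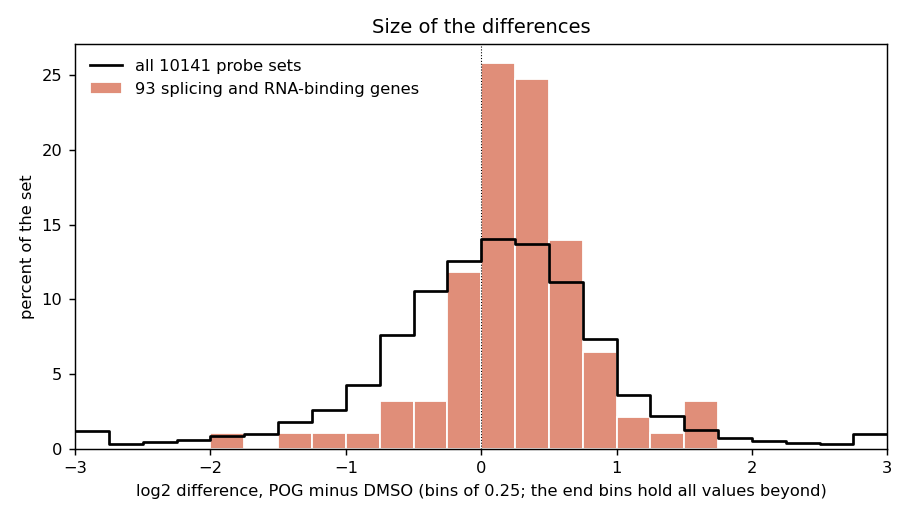
Percent of genes in each bin of 0.25 log2 units of the POG minus DMSO difference, for the 93 splicing and RNA-binding genes (bars) and all 10141 probe sets (line). The bars are narrower than the line and lie to the right of it, with medians of 0.26 and 0.11.

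The SR proteins held the highest share of calls among the families with more than 3 measured genes. Of 9 measured, 6 were higher and 1 lower, the median difference was 0.58, and for all 9 the POG and DMSO arrays did not overlap. Over all probe sets 46.3% were called and 66.8% did not overlap. Srsf3, a small SR protein that also acts in mRNA export, read 12.61 and 12.63 on POG arrays against 11.40, 11.72 and 11.52 on DMSO arrays. Both POG arrays stood well above every DMSO array, and the gene was more than 2-fold higher (log2 difference 1.07 ± 0.17 SE, limma adjusted p = 0.000925). Srsf1, the founding member of the family, read 10.98 and 10.91 in POG against 10.25, 10.02 and 10.23 in DMSO, a difference of 0.78 ± 0.17 (limma adjusted p = 0.00485). Its groups were again apart, by more than the range within either.

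Srsf2, a nuclear speckle protein, read 10.61 and 10.53 in POG against 10.30, 9.74 and 9.74 in DMSO, and DMSO 1 stood above the other DMSO arrays. Its difference was 0.64 (limma adjusted p = 0.0304). Srsf7 read 10.59 and 10.96 against 10.05, 10.20 and 10.45, with a difference of 0.54 (limma adjusted p = 0.0457) and only a narrow gap between the groups. Srsf4 differed by 0.58 and Srsf12, which in human extracts acts against other SR proteins, by 0.86, although Srsf12 had low signals of 4.97 and 5.32 in POG and 4.60, 4.04 and 4.22 in DMSO, where background can set the level. Srsf6 (0.26) and Srsf10 (0.24) did not pass. Srsf2, Srsf4 and Srsf7 were not called after centring and each missed the threshold in 4 of the 5 fits that left out an array: Srsf2 without POG 1, POG 2, DMSO 2 or DMSO 3 (adjusted p of 0.0819 to 0.138), Srsf4 without POG 1, POG 2, DMSO 1 or DMSO 2 (0.0813 to 0.143) and Srsf7 without the same 4 arrays as Srsf4 (0.0528 to 0.291). Srsf12 missed it without POG 2 (0.0924).

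Srsf9, a small SR protein related to Srsf1, went the other way. It read 8.36 and 8.29 on POG arrays against 9.42, 9.57 and 9.17 on DMSO arrays, and every DMSO array stood above both POG arrays. It was 2.09-fold lower in POG-treated cells (log2 difference -1.06 ± 0.18, limma adjusted p = 0.00127) and was called in every alternative analysis. The SR-related matrix proteins Srrm1 and Srrm2, which bridge splicing complexes across exons, differed by 0.14 and 0.19 and did not pass. In both, the lowest POG array read the same as the highest DMSO array (12.21 for Srrm1 and 13.78 for Srrm2).

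**Figure D3:**
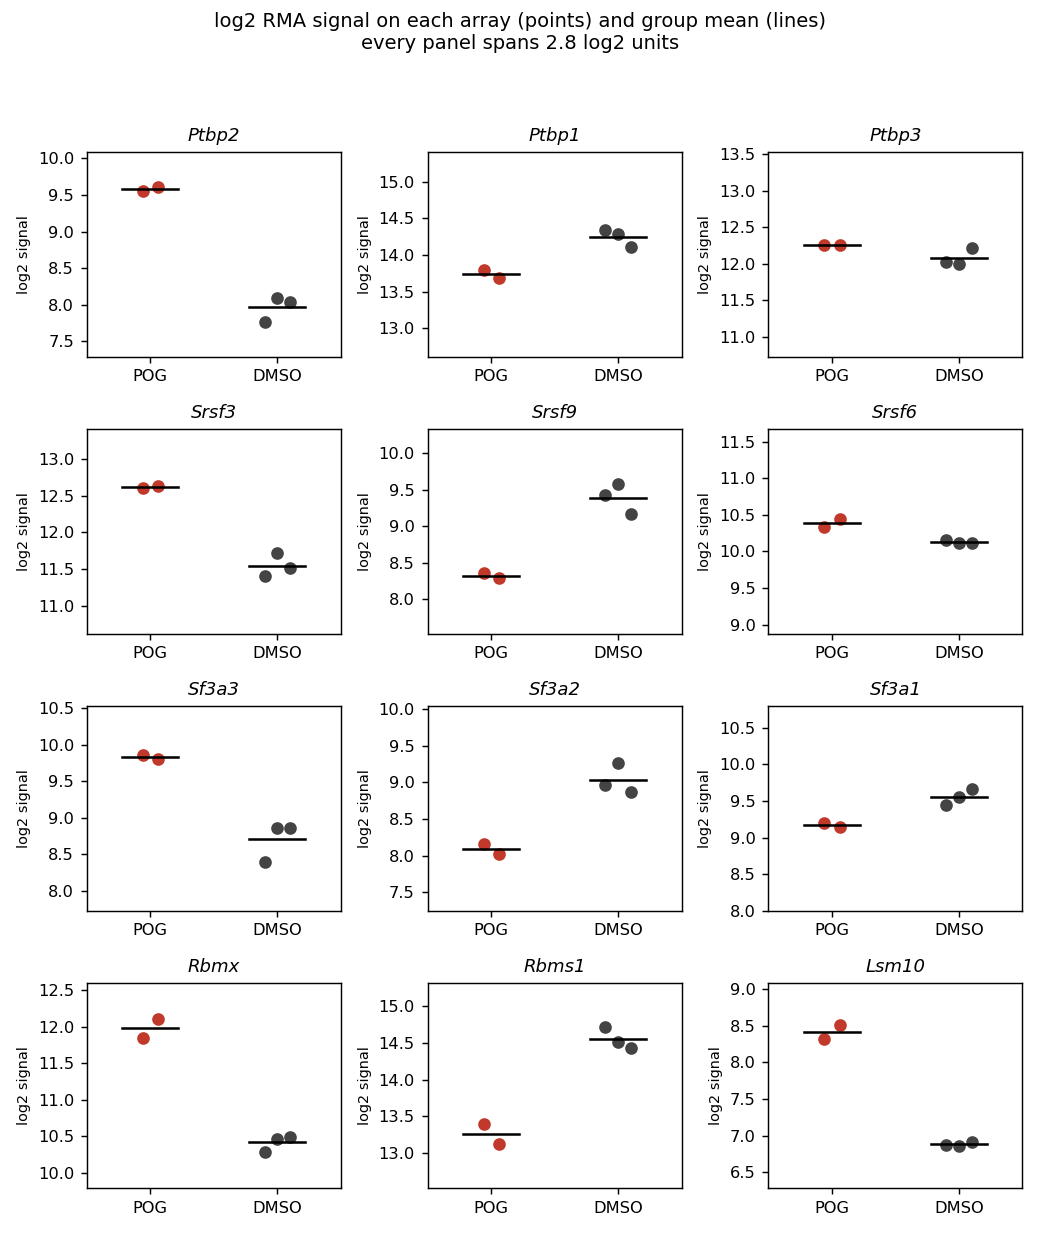
log2 signal of 12 genes on each array, POG arrays at left in red and DMSO arrays at right in grey, with lines at the group means; every panel spans the same range, and levels are not comparable between panels. Ptbp2, Srsf3, Sf3a3, Rbmx and Lsm10 stood higher on both POG arrays, and Ptbp1, Srsf9, Sf3a2 and Rbms1 stood lower on both.

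Within the snRNP proteins, 2 of 10 measured Snrp genes were higher (20%, beside 26.7% of all probe sets) and 0 lower (beside 19.6%). Their median difference was 0.35. Snrpb2, the U2-specific B″ protein that binds U2 RNA, read 11.92 and 12.07 in POG against 11.36, 11.33 and 11.32 in DMSO. The DMSO arrays were tightly grouped and the POG arrays lay above them, with a difference of 0.66 ± 0.16 (limma adjusted p = 0.00946). Its partner Snrpa1 differed by 0.12 with overlapping groups. Of the 6 measured Sm ring proteins only Snrpg passed, with 8.57 and 8.87 in POG against 7.87, 7.55 and 8.16 in DMSO and a difference of 0.86 (limma adjusted p = 0.00915). Sm protein genes have near-identical copies elsewhere in mammalian genomes, so the source of the Snrpg signal is uncertain. The other 5 Sm genes differed by -0.01 to 0.40, Snrpb at 0.40 among them. The U1-specific Snrpa had 9.66 and 8.97 in POG against 8.75, 8.94 and 8.75 in DMSO, where POG 1 stood apart from POG 2, and its difference of 0.50 did not pass (limma adjusted p = 0.086); without POG 2 it was 0.85 (adjusted p = 0.025). Snrpc, also of U1, differed by 0.24. Snrpb2 and Snrpg missed the threshold without POG 2 (adjusted p of 0.0727 and 0.0898).

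The SF3a subcomplex, which joins U2 to form the active particle at the branch point, split by subunit. Sf3a3 read 9.86 and 9.80 in POG against 8.40, 8.86 and 8.86 in DMSO and was 2.18-fold higher (1.12 ± 0.20, limma adjusted p = 0.00136). Sf3a2 read 8.16 and 8.02 in POG against 8.96, 9.27 and 8.87 in DMSO and was 1.92-fold lower (-0.94 ± 0.19, limma adjusted p = 0.00273). In neither gene did the groups overlap, and both calls held in every fit that left out an array, but not by the methods' t-test (adjusted p of 0.0521 for Sf3a3 and 0.0509 for Sf3a2). The third subunit, Sf3a1, read 9.2 and 9.14 in POG against 9.45, 9.56 and 9.66 in DMSO. Its difference of -0.39 did not pass (limma adjusted p = 0.0833), although both POG arrays lay below every DMSO array and it passed after centring (-0.47, adjusted p = 0.0384).

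Over the SF3a and SF3b genes together, 3 of 8 were called (37.5%, beside 46.3% of all probe sets). Of the 5 measured SF3b genes, only Sf3b1 passed. This largest SF3b subunit, which clamps the branch point helix, read 13.45 and 13.71 in POG against 12.97, 13.13 and 13.11 in DMSO, a difference of 0.51 (limma adjusted p = 0.036). Each of the 5 fits without an array (POG 1, POG 2, DMSO 1, DMSO 2 or DMSO 3) put it above the threshold, at adjusted p of 0.056 to 0.216, and it was not called after centring. The other 4 SF3b genes differed by 0.06 to 0.22. U2af1, which reads the AG at the end of the intron, gave 10.14 and 10.15 in POG against 9.76, 10.28 and 9.96 in DMSO, with the POG arrays inside the DMSO range (0.15, adjusted p = 0.564 by limma). Among 6 Prpf genes only Prpf18, a factor of the second catalytic step, passed (16.7% called, beside 46.3% of all probe sets). It read 9.04 and 9.26 in POG against 8.46, 8.59 and 8.36 in DMSO (0.68, limma adjusted p = 0.0106, and 0.0887 without POG 2). The other Prpf genes differed by -0.36 for Prpf38b to 0.35 for Prpf19, and the 3 that act with U4/U6 (Prpf3, Prpf4, Prpf31) by -0.24 to 0.25. Without DMSO 1, Prpf38b was called lower (-0.50, adjusted p = 0.0492).

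Among 12 Lsm genes, 4 were higher (33.3%, beside 26.7% of all probe sets) and 0 lower (beside 19.6%). Lsm10 had the largest difference of these 12. LSM10 and LSM11 replace a pair of Sm proteins in the U7 snRNP, which cuts the 3′ ends of replication-dependent histone transcripts. Lsm10 read 8.32 and 8.51 on POG arrays against 6.87, 6.86 and 6.91 on DMSO arrays. The POG arrays stood far above a tight DMSO group, and the gene was 2.90-fold higher (1.54 ± 0.17, limma adjusted p = 6.49e-05). Its partner Lsm11 read 7.29 and 7.09 in POG against 7.35, 7.42 and 7.42 in DMSO and did not pass (-0.21, adjusted p = 0.331 by limma). Lsm10 thus rose, whereas no call was made for Lsm11, and the difference between the pair was not tested. Lsm12 and Lsm14a differed by 0.26 and 0.16 without a call.

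Of the 7 genes of the LSm2-8 ring, which binds U6 RNA, Lsm2 and Lsm4 were called higher, beside 26.7% of all probe sets. The other 5 did not pass, with differences of 0.05 to 0.42. Lsm2 read 11.13 and 11.04 in POG against 10.40, 10.65 and 10.72 in DMSO, a difference of 0.50 (limma adjusted p = 0.0427). Lsm4 differed by 0.48 and lay at the edge of the threshold (adjusted p = 0.0495 by limma). Neither was called after centring. Lsm2 missed the threshold without POG 1, POG 2, DMSO 1 or DMSO 2 (adjusted p of 0.0751 to 0.171) and Lsm4 without any of the 5 arrays (0.0579 to 0.194). Lsm1, which takes the place of Lsm8 in the cytoplasmic ring that promotes mRNA decay, read 7.13 and 7.56 in POG against 6.57, 6.58 and 6.79 in DMSO (0.70, limma adjusted p = 0.0143, and 0.138 without POG 2).

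Among 15 hnRNP genes, 5 were higher (33.3%, beside 26.7% of all probe sets) and 0 lower (beside 19.6%). The median difference was 0.42. Hnrnpa1, which represses exons by coating silencer elements, read 14.13 and 13.98 in POG against 12.13, 12.67 and 13.04 in DMSO. The DMSO arrays were spread over 0.91, yet all lay below both POG arrays, and the gene was 2.72-fold higher (1.44 ± 0.25, limma adjusted p = 0.00134). Its relative Hnrnpa2b1 read 14.16 and 13.87 against 13.26, 13.12 and 13.33, a difference of 0.78 (limma adjusted p = 0.006, and 0.0603 without POG 1). Hnrnph1, which binds runs of G, read 12.43 and 12.24 in POG against 11.69, 11.29 and 11.31 in DMSO, a difference of 0.91 (limma adjusted p = 0.00395). Its close relative Hnrnph2 had a mean difference of 0.00, with DMSO arrays from 9.87 to 11.20 spanning both POG arrays. By the methods' t-test Hnrnpa1 and Hnrnph1 were not called (adjusted p of 0.0799 and 0.0626). Hnrnpa1 and Hnrnph1 have near-identical copies or relatives, so their probe sets may take in other transcripts.

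Hnrnpd (AUF1), which binds AU-rich elements and promotes decay of many transcripts, read 12.34 and 12.01 in POG against 11.14, 11.51 and 11.64 in DMSO (0.75, limma adjusted p = 0.0148, and 0.123 without POG 1). Its paralog Hnrnpdl differed by 0.46 (limma adjusted p = 0.048) and missed the threshold whichever of the 5 arrays was left out. Hnrnpdl was also not called after centring (0.37, limma adjusted p = 0.0948), with the replicate number as a block or by the methods' t-test. Hnrnpm differed by 0.61, but its groups overlapped, and it did not pass (adjusted p = 0.0663 by limma), though it did in 5 of 13 alternatives. Hnrnpr (0.46), Hnrnpf (0.42) and Hnrnpa3 (0.34) did not pass although both POG arrays lay above every DMSO array. Hnrnpc, which binds U tracts, differed by 0.28 without a call. Hnrnpu, a nuclear scaffold protein, differed by 0.05, with 14.41 and 14.24 in POG against 14.32, 14.23 and 14.29 in DMSO. Hnrnpab, Hnrnpl and Hnrnpul1 lay between 0.01 and 0.15.

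The polypyrimidine tract-binding proteins included the gene with the largest rise of the whole set. PTBP1 is the general form, a repressor of many exons, and PTBP2 is the form best known from neurons. In mouse and human cells PTBP1 protein is known to hold Ptbp2 transcripts low through skipping of an exon. Ptbp2 read 9.56 and 9.61 on POG arrays against 7.77, 8.09 and 8.03 on DMSO arrays and was 3.08-fold higher (1.62 ± 0.18, limma adjusted p = 6.59e-05). Every POG array stood above every DMSO array, and Ptbp2 was called in every alternative. Ptbp1 read 13.79 and 13.68 on POG arrays against 14.34, 14.29 and 14.11 on DMSO arrays, with no overlap but a smaller gap. It was 1.43-fold lower (-0.51 ± 0.17, limma adjusted p = 0.033) and missed the threshold without POG 1, POG 2, DMSO 1 or DMSO 2 (adjusted p of 0.0682 to 0.157). Ptbp3 read 12.26 on both POG arrays against 12.03, 12.00 and 12.22 on DMSO arrays and did not pass (0.18, adjusted p = 0.41 by limma). Exon use and protein were not measured by these gene-level values.

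For Ptbp2 and Ptbp1, Srsf3 and Srsf9, and Sf3a3 and Sf3a2, each pair from a single family with calls in opposite directions, the promoters were read from RefSeq (build GRCr8) to set the relatives side by side. Each sequence runs 5′ to 3′ along the gene's strand, 250 bases before the listed start and 50 from it on. Capitals mark matches, on either strand, to any of 7 words: the GC box GGGCGG, the CCAAT box CCAAT, the ETS word CCGGAAG, the NRF1 core GCATGCGC, the YY1 word AAGATGGC, the E-box CACGTG and the TATA word TATAAA. The positions are chr2:210558228-210558527 (minus strand) for Ptbp2, chr7:10502908-10503207 (minus strand) for Ptbp1, chr20:7093335-7093634 (plus strand) for Srsf3, chr12:46945098-46945397 (minus strand) for Srsf9, chr5:142252157-142252456 (plus strand) for Sf3a3 and chr7:9566156-9566455 (minus strand) for Sf3a2.
Ptbp2: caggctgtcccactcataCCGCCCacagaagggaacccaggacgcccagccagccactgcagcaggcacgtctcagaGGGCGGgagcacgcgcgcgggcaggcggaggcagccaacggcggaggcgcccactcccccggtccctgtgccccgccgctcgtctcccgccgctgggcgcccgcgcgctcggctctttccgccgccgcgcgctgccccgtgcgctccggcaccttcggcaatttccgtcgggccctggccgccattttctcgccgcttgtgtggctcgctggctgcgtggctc
Ptbp1: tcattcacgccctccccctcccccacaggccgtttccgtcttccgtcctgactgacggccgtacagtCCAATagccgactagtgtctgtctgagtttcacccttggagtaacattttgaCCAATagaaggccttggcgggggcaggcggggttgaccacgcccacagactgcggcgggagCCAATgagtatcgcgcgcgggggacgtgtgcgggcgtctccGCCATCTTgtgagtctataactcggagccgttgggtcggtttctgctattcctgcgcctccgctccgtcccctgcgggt
Srsf3: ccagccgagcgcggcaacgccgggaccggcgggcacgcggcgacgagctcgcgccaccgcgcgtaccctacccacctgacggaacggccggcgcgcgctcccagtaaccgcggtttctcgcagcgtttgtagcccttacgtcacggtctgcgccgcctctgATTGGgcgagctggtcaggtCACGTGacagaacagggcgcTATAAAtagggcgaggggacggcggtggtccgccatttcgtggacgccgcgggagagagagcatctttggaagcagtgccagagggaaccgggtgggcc
Srsf9: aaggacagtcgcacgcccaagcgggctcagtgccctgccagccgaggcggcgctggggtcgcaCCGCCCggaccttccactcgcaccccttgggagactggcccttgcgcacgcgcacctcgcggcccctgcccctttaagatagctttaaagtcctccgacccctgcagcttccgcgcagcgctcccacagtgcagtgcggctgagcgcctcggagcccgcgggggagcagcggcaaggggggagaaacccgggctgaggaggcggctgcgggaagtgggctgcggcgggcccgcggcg
Sf3a3: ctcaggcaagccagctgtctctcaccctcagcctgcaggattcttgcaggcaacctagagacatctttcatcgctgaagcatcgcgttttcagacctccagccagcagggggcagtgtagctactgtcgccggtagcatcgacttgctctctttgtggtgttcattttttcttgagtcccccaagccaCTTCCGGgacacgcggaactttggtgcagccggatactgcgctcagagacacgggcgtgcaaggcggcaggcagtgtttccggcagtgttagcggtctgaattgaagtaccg
Sf3a2: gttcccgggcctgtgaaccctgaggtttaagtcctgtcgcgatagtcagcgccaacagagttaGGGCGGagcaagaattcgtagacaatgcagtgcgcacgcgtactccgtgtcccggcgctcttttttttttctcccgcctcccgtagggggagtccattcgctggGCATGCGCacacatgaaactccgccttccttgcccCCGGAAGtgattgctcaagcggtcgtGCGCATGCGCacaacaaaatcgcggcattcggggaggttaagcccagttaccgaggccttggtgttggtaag

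The Ptbp2 promoter held GC boxes only among these words, while the Ptbp1 promoter held 3 CCAAT boxes and a YY1 word. The Srsf3 promoter had a CCAAT box, an E-box and a TATA word, and the Srsf9 promoter had a single GC box. The Sf3a3 promoter had a single ETS word, and the Sf3a2 promoter held a GC box, an ETS word and 3 NRF1 matches, of which a pair on opposite strands overlap. A listed promoter was found for 86 of the 93 genes. Among these the CCAAT box was present in 51.2%, beside 37.7% of all 27457 promoters of the table and 37.5% of those of the 6073 genes named on the array. The ETS word was present in 23.3%, beside 9.22% and 17.5%. The GC box was present in 55.8%, beside 34.9% and 62.4%, and the NRF1 core in 8.14%, beside 2.66% and 4.66%. The YY1 word was present in 6.98%, beside 3.44% and 5.58%, the E-box in 9.3%, beside 6.65% and 9.2%, and the TATA word in 10.5%, beside 14.3% and 7.87%. These matches describe letters in a window and were not tied to binding.

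The CELF and MBNL proteins, which act in opposition on many muscle transcripts, gave a single call. Celf3, a brain-enriched member, read 3.76 and 3.89 on POG arrays against 5.39, 6.03 and 5.43 on DMSO arrays and was 3.46-fold lower (-1.79 ± 0.22, limma adjusted p = 0.000154). This was the largest fall of the set, but all 5 signals were under the lower quartile of all probe sets (6.19), where background can set the level. Celf1, the widely expressed member, read 11.50 and 11.51 in POG against 11.40, 11.41 and 11.10 in DMSO and did not pass (0.20). Mbnl1 read 15.00 and 15.26 against 15.28, 15.30 and 15.06, with overlapping groups (-0.08), and Mbnl3 differed by 0.21.

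Of 23 genes with Rbm symbols, 5 were higher (21.7%) and 2 lower (8.7%), beside 26.7% and 19.6% of all probe sets. The median was 0.27. Rbmx (hnRNP G), an RNA-binding protein that acts with the SR-like TRA2 proteins, read 11.85 and 12.10 on POG arrays against 10.29, 10.47 and 10.49 on DMSO arrays. The groups were far apart, and the gene was 2.95-fold higher (1.56 ± 0.18, limma adjusted p = 8.62e-05). Its copy Rbmxl1 read 10.03 and 9.83 against 9.35, 9.16 and 9.06, a difference of 0.74 (limma adjusted p = 0.00769, and 0.0651 without POG 1). The sequences of the pair are alike, so how far their probe sets share signal is uncertain. Rbm39, a U2AF-related splicing factor, read 14.02 and 14.33 in POG against 13.37, 13.40 and 13.43 in DMSO, a difference of 0.78 (limma adjusted p = 0.00552, and 0.0609 without POG 2).

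Rbm5, Rbm6 and Rbm10 are related splicing regulators. Rbm5 read 11.05 and 11.42 in POG against 10.59, 10.37 and 10.74 in DMSO (0.67, limma adjusted p = 0.0188). Rbm10 read 8.24 and 7.95 in POG against 6.83, 7.67 and 7.61 in DMSO (0.73, limma adjusted p = 0.0425), with DMSO 1 lower than the other DMSO arrays, and Rbm6 differed by 0.36 without a call. Rbm5 missed the threshold without POG 2 or DMSO 2 (adjusted p of 0.0647 to 0.16). Rbm10 missed it without POG 1, POG 2 or DMSO 1 (0.081 to 0.226) and after centring (0.0575).

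Rbms1, a single-strand nucleic acid-binding protein that acts on transcript stability, was the clearest fall among well-expressed genes of the set. It read 13.40 and 13.12 on POG arrays against 14.72, 14.52 and 14.43 on DMSO arrays, and all DMSO arrays stood above both POG arrays. It was 2.46-fold lower (-1.30 ± 0.18, limma adjusted p = 0.000365) and was called in every alternative. Its paralog Rbms2 read 15.38 and 15.44 in POG against 15.02, 15.10 and 15.17 in DMSO, a difference of 0.31 that did not pass (adjusted p = 0.143 by limma). Rbm34 read 6.40 and 6.07 in POG against 7.03, 6.58 and 6.78 in DMSO (-0.56, limma adjusted p = 0.041) and missed the threshold without POG 1, POG 2, DMSO 1 or DMSO 3 (adjusted p of 0.0578 to 0.257). The cold-inducible Rbm3 read 14.06 and 14.25 in POG against 13.24, 14.04 and 14.51 in DMSO, so that the DMSO arrays spanned both POG arrays. Its difference of 0.23 turned to -0.12 without DMSO 1. The remaining Rbm genes, from -0.62 to 0.48 and among them the exon junction core protein Rbm8a (-0.05) and Rbm22 of the catalytic spliceosome (-0.11), did not pass. Of these, Rbm24, a regulator of muscle splicing, had the most negative value (-0.62, adjusted p = 0.0831 by limma) at signals of 5.07 and 5.10 in POG against 5.44, 5.37 and 6.31 in DMSO.

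Other parts of the splicing machinery, taken from 6 lists of genes outside these families, gave similar counts. Of 153 listed genes 100 were measured, of which 27 were higher and 5 lower, 32% called beside 46.3% of all probe sets, with a median of 0.27. Of 5 measured kinases that phosphorylate SR proteins, 3 were higher (60%) and 1 lower (20%), beside 26.7% and 19.6% of all probe sets. Clk1, which releases SR proteins from nuclear speckles, read 10.99 and 11.37 in POG against 10.05, 9.83 and 10.06 in DMSO and was 2.30-fold higher (1.20 ± 0.19, limma adjusted p = 0.000708). Clk4 (0.64) and Srpk2 (0.69) were also higher and Dyrk1a was lower (-0.55). Srpk2 missed the threshold without POG 1 or DMSO 2 (adjusted p of 0.148 and 0.0534).

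Of 11 measured snRNP assembly genes, only Gemin8 of the SMN complex was called (9.09%, beside 46.3% of all probe sets). It read 9.65 and 9.63 in POG against 7.28, 8.33 and 8.30 in DMSO, 3.18-fold higher (1.67 ± 0.29, limma adjusted p = 0.00146), with DMSO 1 below the other DMSO arrays, and was not called by the methods' t-test (adjusted p of 0.0932). Gemin2 differed by 0.55 without a call, and by 0.97 without POG 1 (adjusted p = 0.0329). Among 19 further proteins listed with the snRNPs 3 were higher (15.8%) and 2 lower (10.5%), beside 26.7% and 19.6% of all probe sets. The 2 lower genes were the branch point-binding protein Sf1 (-0.58) and the U2-associated Cherp (-0.84). Sf1 missed the threshold without POG 2 or DMSO 2 (adjusted p of 0.178 and 0.07), and Cherp without POG 1 (0.101).

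Of 20 measured Prp19, B and C complex genes 6 were higher, Zmat2 (0.87) and Gpatch1 (0.71) with the smallest p, and 1 was lower. The called share was 35%, beside 46.3% of all probe sets. Of 20 exon junction and export genes 6 were higher (30%, beside 26.7% of all probe sets) and 0 lower (beside 19.6%). The paralogous export helicases Ddx39a and Ddx39b differed by 1.13 ± 0.22 and 0.88 ± 0.18 (limma adjusted p = 0.00251 and 0.00365). Of 25 other splicing regulators 8 were higher (32%) and 1 lower (4%), beside 26.7% and 19.6% of all probe sets. Tia1, which binds U-rich sequence next to 5′ splice sites, read 9.91 and 10 in POG against 8.95, 7.76 and 8.31 in DMSO, 3.06-fold higher (1.62 ± 0.29, limma adjusted p = 0.00176). Rbfox2, which binds UGCAUG and sets mesenchymal exon choice, read 11.17 and 11.18 in POG against 10.36, 10.70 and 10.42 in DMSO (0.68, limma adjusted p = 0.0115). Zmat2 missed the threshold without POG 2 (adjusted p of 0.0743), Gpatch1 without POG 1 (0.0909) and Rbfox2 without POG 1 or POG 2 (0.0586 and 0.0654). By the methods' t-test Tia1, Ddx39a, Zmat2, Gpatch1 and Rbfox2 were not called (adjusted p of 0.0976, 0.079, 0.0898, 0.0877 and 0.0611). The same held by that test for Srpk2, Cherp and Sf1 above (adjusted p of 0.101, 0.112 and 0.0752).

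**Figure D4:**
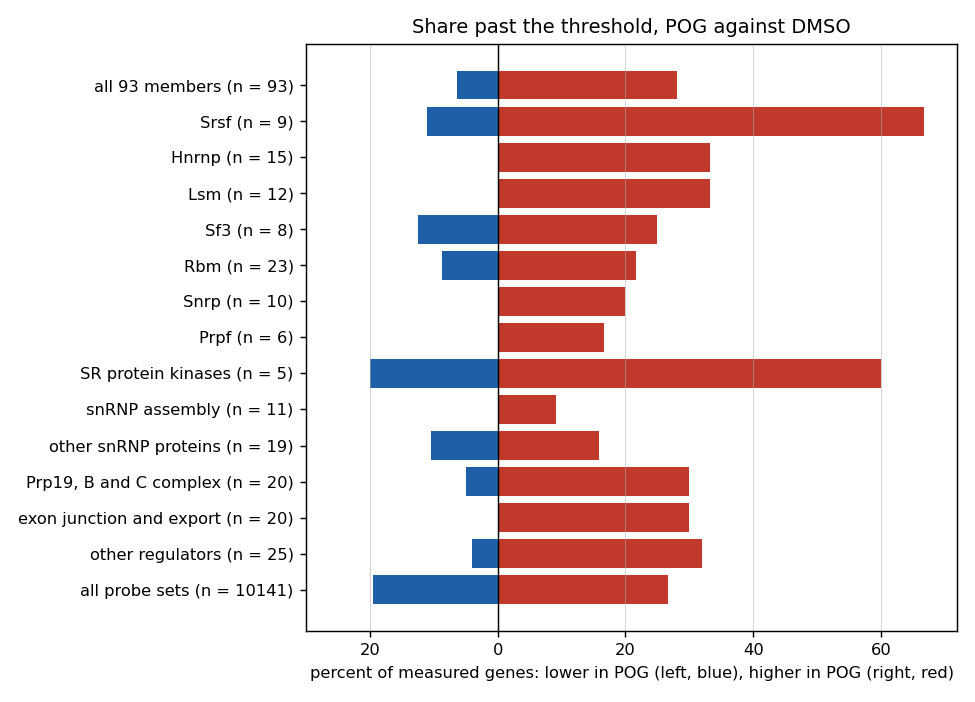
Percent of measured genes called lower (left, blue) or higher (right, red) in POG-treated cells, for the 93 genes, their 7 families with at least 6 measured genes, the 6 lists of related genes and, at the bottom, all probe sets. The Srsf family stood at 66.7% higher and 11.1% lower, all 93 genes at 28% and 6.45%, and all probe sets at 26.7% and 19.6%.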

How the data were processed

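Total RNA of 5 samples (2 POG, 3 DMSO) was hybridised to Affymetrix rat transcriptome arrays. The authors deposited log2 signals made by robust multi-array averaging (RMA, per the submitters' processing notes, no version stated); a further table gave identical values (largest difference 0). How the 10141 probe sets were selected is not given in the sources used here. Gene symbols came from the platform annotation (7240 probe sets with 1 symbol, 2901 with none), and all 93 members were found in the current gene table. Such arrays give no counts, so precision is limited by how many arrays there are.

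All probe sets were fitted with limma 3.58.1 in R 4.3.3 (lmFit and eBayes, two-sided, group as the only term), with Benjamini-Hochberg adjustment over all 10141 and a threshold of 0.05. Differences are POG minus DMSO. The fit was tested on simulated data. The members and gene lists were chosen with earlier results of these data known. Genes given with values were the 10 largest rises and up to 10 largest falls among called members with non-overlapping groups, up to 2 members with the smallest p per family, a panel of 34 genes, and up to 2 genes per related list; further genes are named to account for the set and were chosen after their values were seen. Panel genes Srsf5, Snrpn, Hnrnpk, Prpf8, U2af2, Celf2 and Mbnl2 were not analysed here. Alternatives were the other table, quantile normalization, centring, brighter probe sets only, trended and robust variances, array weights, the replicate number as a block, leaving out each array, and the methods' t-test. Samples sharing a replicate number did not deviate together (r = 0.0042 and 0.0052), so the numbers were not taken as pairs. Promoters were read from RefSeq (GRCr8). Figures were drawn with matplotlib 3.10.9.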

Additional observations from a re-analysis of the deposited data

How the results depend on the processing

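All 32 called genes kept their sign in all 13 alternatives in which they were tested, and 8 (Ptbp2, Rbmx, Srsf1, Srsf3, Lsm10, Rbms1, Srsf9 and Celf3) were called in every one, 12 in all 5 fits that left out an array; 10 genes without a call passed in at least 1 alternative. The calls that were not among these 12 were each lost in at least 1 of the 5 fits that left out an array. Some of these calls were well under the threshold in the main fit, such as Rbm39 (limma adjusted p = 0.00552). A fit that left out a POG array rested on a single POG array. Leaving out each array in turn gave 17 to 29 called members (13 to 24 higher, 4 to 5 lower), with 17 without POG replicate 2 and 20 without POG replicate 1; over all probe sets it gave 2900 to 4347 calls (1586 to 2480 higher, 1314 to 1931 lower). By family these fits called 2 to 5 Hnrnp, 1 to 4 Lsm, 0 to 2 Prpf, 1 to 2 Ptbp, 3 to 6 Rbm, 2 Sf3, 1 to 2 Snrp and 3 to 6 Srsf genes, and the median difference over the members was 0.23 to 0.32. The methods' t-test with Benjamini-Hochberg adjustment called 12 members (9 higher, 3 lower) and 2078 probe sets (1064 higher, 1014 lower); by family it called 1 Hnrnp, 1 Lsm, 0 Prpf, 1 Ptbp, 3 Rbm, 0 Sf3, 1 Snrp and 4 Srsf genes, and of 38 named genes called by limma, related genes included, it called 13 and lost 25. At the methods' own threshold of an unadjusted p under 0.05 and a change over 1.5-fold, 22 members passed by the methods' t-test and 26 by limma. Testing only brighter probe sets gave 2894 calls (1560 higher), with 0 Celf, 2 Lsm and 1 Snrp genes. Celf3, Lsm1, Lsm10 and Snrpg had mean signals of 4.90 to 8.20, under the cut of 8.45, so that fit did not test them. Centring moved the median of all probe sets to 0.02, left a median of 0.17 over the members, 2 Lsm and 4 Srsf calls, and turned Hnrnpu to -0.042. With the replicate number as a block, 28 members were called and the median was 0.32, although the labels do not say whether the numbers pair the samples. Values that turned sign without an array were Mbnl1 (-0.21 to 0.047), Hnrnpu (-0.04 to 0.13) and Rbm3 (-0.12 to 0.52), 3 genes with no call. For named genes, 584 of 678 values under an alternative kept their side of the threshold and their direction. Apart from the genes left out of the brighter fit, the cause of the lost calls was not tested. The smaller number of arrays or probe sets in some fits was not set apart.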
